A study of Mus musculus with 8 samples.

Results

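A set of 10 genes of fatty acid uptake, binding, storage and release was followed in primary murine cardiac fibroblasts. They were chosen by name, as the rows of the deposited table with the symbols Pparg, Lpl, Cd36, Fabp3, Fabp4, Fabp5, Plin2, Pnpla2, Lipe and Scd1, which made 10 of the 22274 genes in the table. Each symbol matched 1 row. The choice was made with earlier results of these data known. RNA-seq had been performed on 4 libraries labelled GFP, which the study describes as an empty adenoviral vector, and 4 libraries labelled OEIRF7, transduced with a virus that carries FLAG-tagged interferon regulatory factor 7. All 8 had received TGF-β, the cytokine of fibroblast activation, for 24 h at 5 ng/ml, so no untreated cells are in the comparison. The deposited description names an adeno-associated virus where the study names an adenovirus. The labels do not say which libraries came from separate cultures, and the legend of the experiment gives 3 biological replicates, so p-values measure only the spread between these libraries, which may be technical.

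Fat reaches a cell as triglyceride in lipoproteins or as free fatty acid. Lipoprotein lipase (Lpl) frees fatty acids at the cell surface, Cd36 takes them up, and fatty acid binding proteins (Fabp3, Fabp4, Fabp5) carry them through the cytosol. Surplus is stored as triglyceride in lipid droplets coated by perilipin 2 (Plin2) and is released by adipose triglyceride lipase (Pnpla2) and hormone-sensitive lipase (Lipe). Scd1 makes monounsaturated fatty acids, the preferred substrates of storage, and Pparg encodes a fatty acid-sensing nuclear receptor that controls many of these genes in fat cells.

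Total counts per library lay between 24454801 and 28658826. Mouse Irf7 had 92.0 to 147 CPM (read counts scaled by the TMM-adjusted library size) in the GFP libraries and 14.5 to 16.4 CPM in the libraries labelled OEIRF7. The IRF7 adenovirus in the reagent list is named for the human gene, whose reads a count of mouse genes would not hold. The adeno-associated virus listed there is named for mouse Irf7. With the adenovirus Irf7 does not check the labels, whereas with a virus carrying the mouse gene the fall of Irf7 goes against them. Every direction below is therefore between the libraries as labelled. Of 10 fibroblast markers all were detected, with summed levels of 13460 to 14180 CPM in the GFP libraries and 11856 to 12453 CPM in those labelled OEIRF7. Of the 10, 6 were lower and 1, Pdgfra, was higher at an adjusted p under 0.05, beside 29.9% and 29.0% of all tested genes. Col1a2, Dcn and Thy1 did not pass. Most of the sum was Col1a1, Col1a2, Postn and Col3a1, with means of 4561, 3704, 2631 and 1648 CPM in the GFP libraries. Of 7 adipocyte markers none passed the filter on low counts, and Lep, Retn, Cfd and Cidec had no count in any library.

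The upstream sequences of Cd36 and Plin2 are shown here, as the members higher in the libraries labelled OEIRF7 whose stretch held the hexamer AGGTCA. RefSeq's table (GRCm38.p6) held 9 start sites of 6 members, Plin2, Fabp3, Cd36, Pparg, Lipe and Pnpla2, and none was found in it for Lpl, Fabp4, Fabp5 and Scd1. Each line gives the 250 bases before the start, 5′ to 3′ on the gene's strand, with capitals on AGGTCA or its complement, the hexamer that PPAR and related receptors bind. The Cd36 stretch lies at chr5:17835897-17836146 on the minus strand and the Plin2 stretch at chr4:86670060-86670309 on the minus strand. The Cd36 start is one within the gene, whose annotated 5′ end lies at 17888801, and its 250 bases are intronic in GENCODE M21.
Cd36: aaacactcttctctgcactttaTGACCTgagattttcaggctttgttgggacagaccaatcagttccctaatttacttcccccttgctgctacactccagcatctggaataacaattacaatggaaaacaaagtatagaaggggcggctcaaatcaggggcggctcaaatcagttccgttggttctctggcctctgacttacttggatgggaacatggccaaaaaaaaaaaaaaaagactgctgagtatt
Plin2: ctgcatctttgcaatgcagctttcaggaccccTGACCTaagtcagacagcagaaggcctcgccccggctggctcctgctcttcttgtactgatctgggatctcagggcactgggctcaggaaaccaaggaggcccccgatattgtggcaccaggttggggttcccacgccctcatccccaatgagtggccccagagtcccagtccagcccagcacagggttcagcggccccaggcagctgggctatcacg

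The Cd36 and Plin2 stretches each held 1 such hexamer, 228 and 218 bases before the start. Those of Fabp3 and Pnpla2, the other higher members with a start site, are not printed and held none. The stretches of Fabp3, Pparg and Lipe, like that of Cd36, lie in part or as a whole inside the gene as GENCODE M21 annotates it, among them 143 of the 250 bases of Fabp3, which are exonic. Over the 9 start sites of members, 4 had AGGTCA on either strand, 1 of Cd36, 1 of Plin2 and 2 of Pparg, beside 14.0% of the 32851 promoters in the table. The direct repeat AGGTCANAGGTCA was in none of the 9 and in 0.0335% of all promoters, and GAAANNGAAA, the core of the element bound by interferon regulatory factors, was in none of the 9 and in 2.98%, both strands searched. A match of letters is a description and not a bound site.

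In the libraries labelled OEIRF7, 6 members were higher (Fabp3, Cd36, Fabp4, Plin2, Pnpla2 and Scd1), where a gene was called at a Benjamini-Hochberg adjusted p under 0.05 in the quasi-likelihood test of edgeR. Pparg was lower, and Lpl, Fabp5 and Lipe did not pass the test. The largest difference was that of Fabp3, 1.96-fold, and no member passed a log2 fold change of 1. Thus 60% of members were higher and 10% lower, where 29.0% of the 13533 tested genes were higher and 29.9% lower. As the members were chosen with earlier results of these data known, these shares describe the list and are no test of it. In either direction the share was 70%, against 58.9% of all tested genes, so to be called at all was common in this comparison. Past a log2 fold change of 1 in either direction there were 8.56% of all tested genes, 4.66% higher and 3.89% lower, and 0 members. All libraries labelled OEIRF7 were above all GFP libraries in 6 members and in 26.8% of tested genes, and below them in 1 member and in 27% of tested genes, without overlap in 7 members and in 53.8% of tested genes. The members' median log2 fold change was 0.17, beside 0.00 for all tested genes. All 10 members passed the filter on low counts, with 46 to 21589 counts of a member in a library.

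**Figure D1:**
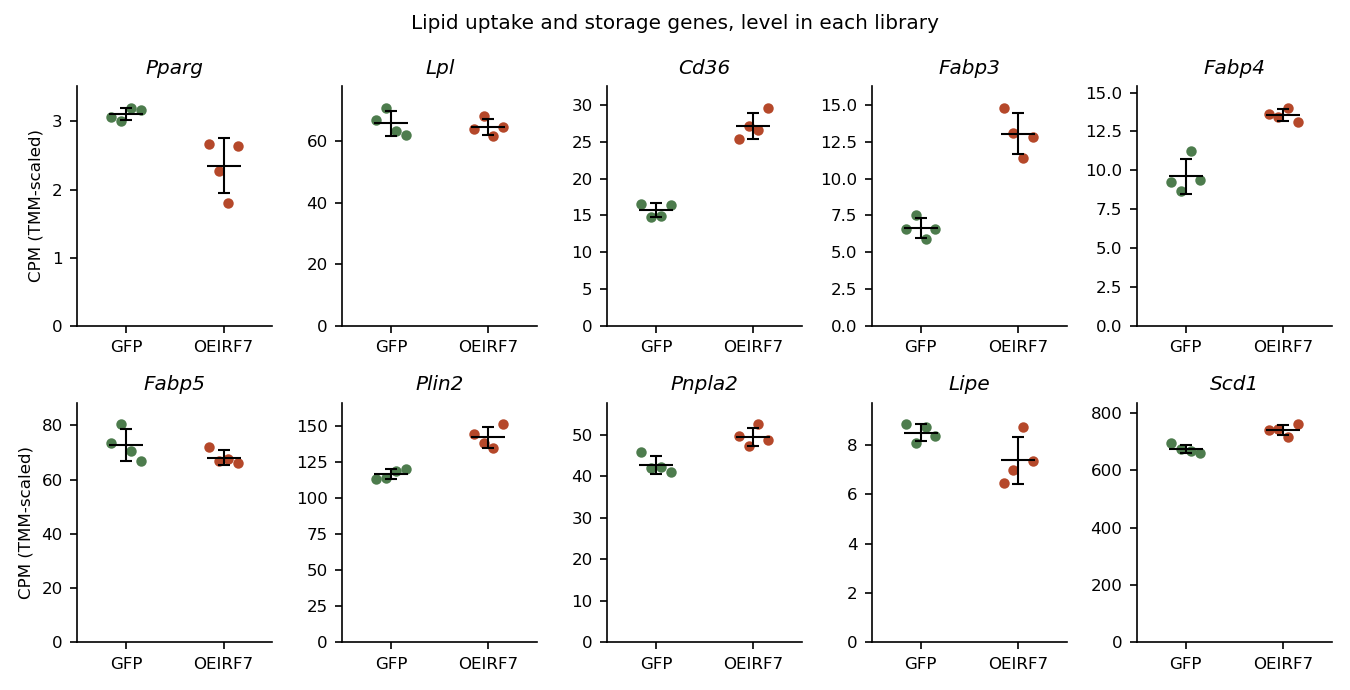
Level of each of the 10 genes in CPM on axes that start at 0, with 1 point per library, a bar at the mean and whiskers of 1 SD (n = 4 per group). The groups do not overlap in Cd36, Fabp3, Fabp4, Plin2, Pnpla2 and Scd1, where all libraries labelled OEIRF7 are higher, nor in Pparg, where all are lower, and they overlap in Lpl, Fabp5 and Lipe.

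Pparg (chromosome 6, 115360951 to 115490399, plus strand, GRCm38) was the least expressed member in CPM and per gene length. Its levels were 3.06, 3.005, 3.20 and 3.17 CPM in GFP replicates 1 to 4 and 2.67, 2.27, 1.81 and 2.64 CPM in OEIRF7 replicates 1 to 4. All libraries labelled OEIRF7 were below all GFP libraries, and replicate 3 was the lowest. Pparg fell by 0.40 on the log2 scale (SE, standard error, 0.16, edgeR adjusted p = 0.039), from 3.11 ± 0.091 to 2.35 ± 0.404 CPM (SD, n = 4 each). In bulk RNA fewer cells of a type and less RNA per cell cannot be told apart, here and in the genes below. The call was lost in 6 of the 8 fits that left out 1 library, namely GFP replicate 1, 2, 3 or 4 and OEIRF7 replicate 2 or 3, with an adjusted p (edgeR) of 0.059, 0.054, 0.074, 0.072, 0.074 and 0.12.

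Among the other receptors of the family, Ppard had 29.1 ± 1.92 CPM in the GFP libraries and 24.98 ± 1.1 CPM in those labelled OEIRF7 (SD, n = 4 per group). It fell by 0.22 on the log2 scale (edgeR adjusted p = 0.0049), with no overlap between groups. Ppara, with 0.153 to 0.486 CPM in the GFP libraries and 0.314 to 0.724 CPM in the others, had an adjusted p of 0.16 from edgeR. Per gene length, Ppard was the most abundant of the 3 receptors in the GFP libraries, at a mean of 10.1 FPKM beside 1.53 FPKM for Pparg and 0.120 FPKM for Ppara.

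Of the 2 uptake genes, Cd36 rose and Lpl did not pass the test. Cd36 (chromosome 5, 17781690 to 17888801, minus strand), the fatty acid translocase, had 16.6, 14.8, 14.9 and 16.4 CPM in GFP replicates 1 to 4. It had 25.4, 27.2, 26.5 and 29.6 CPM in OEIRF7 replicates 1 to 4. Every library labelled OEIRF7 was thus above every GFP library, and the gap between the groups was wider than the range within either. Cd36 rose by 0.79 on the log2 scale, or 1.73-fold (SE 0.066, edgeR adjusted p = 1.0e-07; two-sided exact permutation p = 0.029, as small as groups of 4 can give).

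Lpl (chromosome 8, 68880491 to 68907448, plus strand) had 66.8, 70.7, 63.1 and 61.9 CPM in GFP replicates 1 to 4 and 63.8, 68.1, 61.6 and 64.6 CPM in OEIRF7 replicates 1 to 4. The groups overlapped over almost their whole range. The log2 fold change was -0.02, with a 95% interval from -0.13 to 0.08 (edgeR adjusted p = 0.69), and its sign changed with the scaling.

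While the Lpl transcript was within the spread of the replicates, the transcript of an inhibitor was not. Angptl4, a secreted protein that inactivates lipoprotein lipase and a known PPAR target, had 9.03, 9.33, 8.75 and 8.81 CPM in GFP replicates 1 to 4. In OEIRF7 replicates 1 to 4 it had 68.3, 78.8, 74.1 and 68.3 CPM. It rose 8.06-fold (log2 fold change 3.01, SE 0.061, edgeR adjusted p = 1.9e-13), a change that ranked 66 by size among all tested genes. Per gene length, the ratio of Angptl4 to Lpl in FPKM was 0.199 to 0.235 in the GFP libraries and 1.62 to 1.99 in those labelled OEIRF7, a ratio chosen after the values were seen.

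Lmf1, which folds the lipase in the endoplasmic reticulum, had a log2 fold change of 0.01 (95% interval from -0.11 to 0.14, edgeR adjusted p = 0.87). Gpihbp1, which holds the lipase on capillary endothelium, had at most 10 counts in a library and was not tested. Of the 8 genes listed for the lipase system, 5 were tested, of which 3 were higher and 1 lower. Of all tested genes 29.0% were higher and 29.9% lower, and 5 genes are too few to set against these shares.

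The binding proteins parted. Fabp3 and Fabp4 rose, and Fabp5 did not pass the test. Fabp3 (chromosome 4, 130308595 to 130315463, plus strand), the form of heart and muscle, had 6.57, 7.53, 5.87 and 6.56 CPM in GFP replicates 1 to 4. It had 14.8, 13.1, 11.4 and 12.8 CPM in OEIRF7 replicates 1 to 4. The lowest library labelled OEIRF7 was above the highest GFP library. Fabp3 rose by 0.97 on the log2 scale (SE 0.099, 95% interval from 0.76 to 1.19, edgeR adjusted p = 8.3e-07; two-sided exact permutation p = 0.029). It shares 81 exon bases with Zcchc17 on the opposite strand, which had a log2 fold change of 0.29 (SE 0.056, edgeR adjusted p = 0.00049). Fabp3 also shares 80 exon bases with Gm10570 on that strand, which is not a row of the table. The study names a stranded library kit, but the strand setting of the counting is not given in the sources used here.

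Fabp4 (chromosome 3, 10204088 to 10208576, minus strand), the form of adipocytes, macrophages and capillary endothelium, had 9.22, 8.65, 11.2 and 9.38 CPM in GFP replicates 1 to 4. Its levels were 13.6, 13.4, 14.0 and 13.1 CPM in OEIRF7 replicates 1 to 4. The groups did not overlap, and the GFP libraries were the more spread. The log2 fold change was 0.49 (SE 0.083, edgeR adjusted p = 0.00013), or 1.41-fold.

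Fabp5 (chromosome 3, 10012548 to 10016607, plus strand), the epidermal form, had 73.7, 80.4, 70.4 and 66.8 CPM in GFP replicates 1 to 4 and 72.1, 66.9, 67.5 and 66.1 CPM in OEIRF7 replicates 1 to 4. The groups overlapped. The log2 fold change was -0.10, with a 95% interval from -0.21 to 0.02 (edgeR adjusted p = 0.13). Without GFP replicate 4 it passed, with a log2 fold change of -0.14 and an adjusted p of 0.036 (edgeR). The annotation holds 1 further gene named after Fabp5 and 1 named after Fabp3, and how reads of near-identical copies were assigned is not given in the sources used here.

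A further paralog, Fabp7, the brain form, had 2.58, 2.64, 3.48 and 2.63 CPM in GFP replicates 1 to 4. It had 11.0, 11.7, 14.0 and 11.3 CPM in OEIRF7 replicates 1 to 4. It rose by 2.08 on the log2 scale, or 4.23-fold (SE 0.12, edgeR adjusted p = 2.3e-09), more than any of the 3 members of its family. Of the 7 listed paralogs only Fabp1 and Fabp7 were tested, and Fabp1 did not pass.

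The makeup of the family's transcripts per gene length differed between the groups. Of the summed FPKM of Fabp3, Fabp4, Fabp5 and Fabp7, Fabp5 took 76.7 ± 1.76% in the GFP libraries and 60.1 ± 0.696% in those labelled OEIRF7 (SD, n = 4 per group). Fabp3 went from 8.39 ± 0.661% to 13.8 ± 1.25%, Fabp4 from 11.2 ± 1.61% to 13.2 ± 0.379% and Fabp7 from 3.68 ± 0.615% to 13.0 ± 1.55%. Fabp5 was still the most abundant of the 4 in every library. These shares were computed after the values were seen and carry no test.

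**Figure D2:**
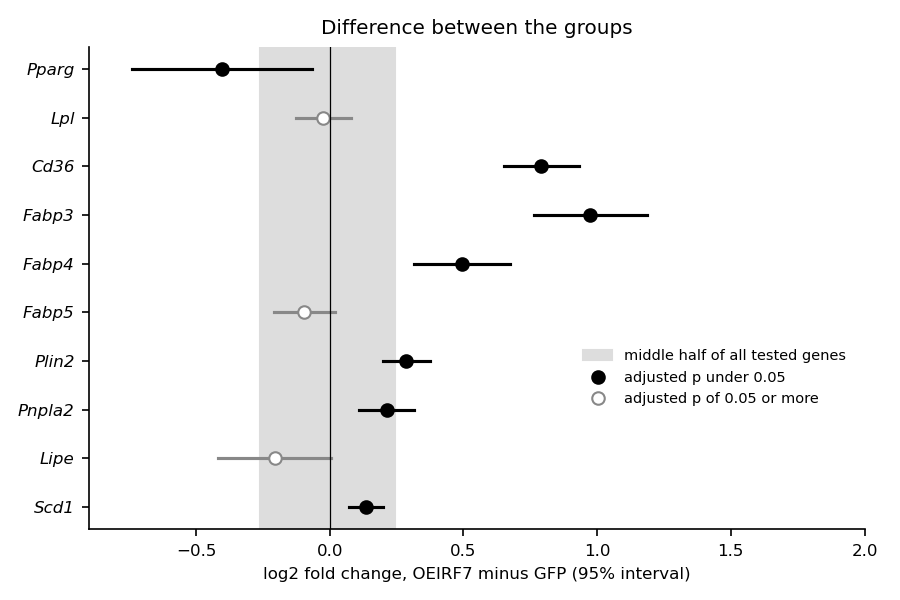
Log2 fold change of each gene, libraries labelled OEIRF7 minus GFP, with its 95% interval from edgeR's quasi-likelihood fit, over a grey band for the interquartile range of all tested genes (-0.26 to 0.24). Fabp3, Cd36 and Fabp4 have their whole interval above the band, Plin2 has its estimate just outside it, and Scd1 lies within it.

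Plin2 (chromosome 4, 86648386 to 86670060, minus strand), the coat protein of lipid droplets outside fat tissue, had 113, 114, 119 and 120 CPM in GFP replicates 1 to 4. In OEIRF7 replicates 1 to 4 it had 144, 138, 135 and 151 CPM. No library labelled OEIRF7 reached down to a GFP library. Plin2 rose by 0.29 on the log2 scale, or 1.22-fold (SE 0.041, edgeR adjusted p = 2.5e-05).

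Of its paralogs, Plin3, which coats nascent droplets, rose by 0.36 on the log2 scale (edgeR adjusted p = 6.2e-06), from 59.1 ± 1.95 to 75.5 ± 3.85 CPM (SD, n = 4 each). Plin4 had a log2 fold change of -0.03 (95% interval from -0.33 to 0.26, edgeR adjusted p = 0.85). Plin1, the coat of adipocyte droplets, had 1 count in all 8 libraries together, and Plin5, the coat of oxidative tissues, had at most 6 counts in a library, so neither was tested. Per gene length, the ratio of Plin3 to Plin2 in FPKM was 0.252 ± 0.013 in the GFP libraries and 0.266 ± 0.0041 in the others (SD, n = 4 per group). The groups overlapped, at 0.242 to 0.269 and 0.260 to 0.269, and this ratio was chosen after the values were seen.

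The lipases of the droplet did not move together. Pnpla2 (chromosome 7, 141455198 to 141460743, plus strand), which takes the first fatty acid from triglyceride, had 45.9, 42.1, 42.2 and 41.0 CPM in GFP replicates 1 to 4 and 49.7, 47.4, 52.6 and 48.7 CPM in OEIRF7 replicates 1 to 4. The groups were apart by less than 2 CPM. Pnpla2 rose by 0.21 on the log2 scale, or 1.16-fold (SE 0.048, edgeR adjusted p = 0.0015).

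Lipe (chromosome 7, 25379527 to 25398710, minus strand), which hydrolyses diglyceride, had 8.84, 8.09, 8.75 and 8.35 CPM in GFP replicates 1 to 4. It had 6.47, 6.997, 8.72 and 7.34 CPM in OEIRF7 replicates 1 to 4. In OEIRF7, replicates 1, 2 and 4 were below all GFP libraries, and replicate 3 lay among them. The log2 fold change was -0.21 (95% interval from -0.42 to 0.0035, edgeR adjusted p = 0.084), and without OEIRF7 replicate 3 it was -0.30 with an adjusted p of 0.013 (edgeR). Lipe shares 918 exon bases with an annotated gene on the opposite strand, 4732471J01Rik, that is not a row of the table.

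The regulators of Pnpla2's enzyme differed in opposite directions. G0s2, its inhibitor, had 11.0, 12.1, 8.14 and 9.76 CPM in GFP replicates 1 to 4 and 4.61, 3.48, 2.16 and 3.97 CPM in OEIRF7 replicates 1 to 4. It fell by 1.53 on the log2 scale (SE 0.18, edgeR adjusted p = 3.4e-06), with no overlap. Abhd5, its activator, rose by 0.23 on the log2 scale (edgeR adjusted p = 8.1e-05), from 92.8 ± 1.41 to 109 ± 4.33 CPM (SD, n = 4 each). Hilpda, a hypoxia-induced droplet protein that also inhibits this lipase, rose by 0.72 (edgeR adjusted p = 1.5e-05), from 5.74 ± 0.556 to 9.46 ± 0.746 CPM (SD, n = 4 each). One inhibitor was therefore lower and another higher.

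Per gene length, the ratio of G0s2 to Pnpla2 in FPKM was 0.427 to 0.616 in the GFP libraries and 0.0937 to 0.216 in those labelled OEIRF7, a ratio chosen after the values were seen. Mgll, the monoglyceride lipase of the last step, fell by 0.19 on the log2 scale (edgeR adjusted p = 0.018), with overlap between the groups (two-sided exact permutation p = 0.057).

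**Figure D3:**
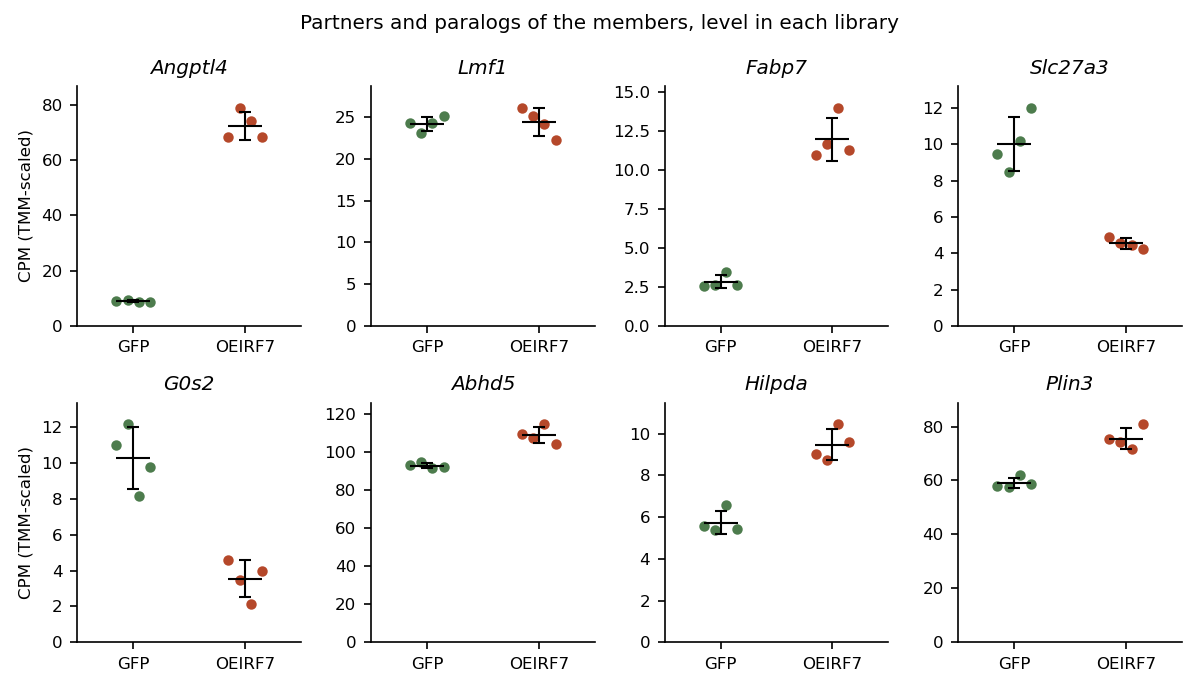
Level in CPM of 8 partners and paralogs of the members, on axes that start at 0, with 1 point per library, a bar at the mean and whiskers of 1 SD (n = 4 per group). Angptl4, Fabp7, Abhd5, Hilpda and Plin3 are higher and Slc27a3 and G0s2 lower in all 4 libraries labelled OEIRF7, and Lmf1 overlaps.

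Scd1 (chromosome 19, 44394455 to 44407879, minus strand), the stearoyl-CoA desaturase, was the most abundant member, with 695, 672, 668 and 660 CPM in GFP replicates 1 to 4. It had 740, 744, 714 and 760 CPM in OEIRF7 replicates 1 to 4. The groups did not overlap, although the difference was small. Scd1 rose by 0.13 on the log2 scale, or 1.097-fold (SE 0.030, edgeR adjusted p = 0.0012).

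Its paralog Scd2 had 2285 ± 62.5 CPM in the GFP libraries and 2236 ± 73.3 CPM in the others (SD, n = 4 per group), with a log2 fold change of -0.03 (95% interval from -0.09 to 0.03, edgeR adjusted p = 0.38). Per gene length, Scd1 made up 25.4 ± 0.886% of the summed FPKM of Scd1 and Scd2 in the GFP libraries and 27.5 ± 0.750% in those labelled OEIRF7 (SD, n = 4 per group). Scd2 thus exceeded Scd1 in every library, by a ratio in FPKM of 2.52 to 3.13, a ratio chosen after the values were seen.

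Compared per gene length, in the FPKM that the authors calculated, the members spanned a range from 1.53 FPKM (Pparg) to 141 FPKM (Scd1) in the GFP libraries. The order of the mean FPKM there was Scd1, Fabp5, Plin2, Pnpla2, Lpl, Fabp4, Fabp3, Cd36, Lipe and Pparg, and no neighbours in it overlapped between libraries. Some were close, such as Fabp3, with 7.08 to 9.08 FPKM, and Cd36, with 5.95 to 7.02 FPKM, or Fabp5, with 66.9 to 80.8 FPKM, and Plin2, with 61.4 to 65.8 FPKM. In the libraries labelled OEIRF7, Plin2 (79.1 ± 3.91 FPKM) stood above Fabp5 (69.7 ± 2.98 FPKM) and Fabp3 (15.99 ± 1.78 FPKM) above Fabp4 (15.2 ± 0.391 FPKM; SD, n = 4 each). There the ranges of Lpl and Fabp3, and those of Fabp3 and Fabp4, overlapped, so their order is within the spread of the libraries. Cd36 went from 6.45 ± 0.493 to 12.1 ± 1.54 FPKM (SD, n = 4 per group) and kept its place.

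**Figure D4:**
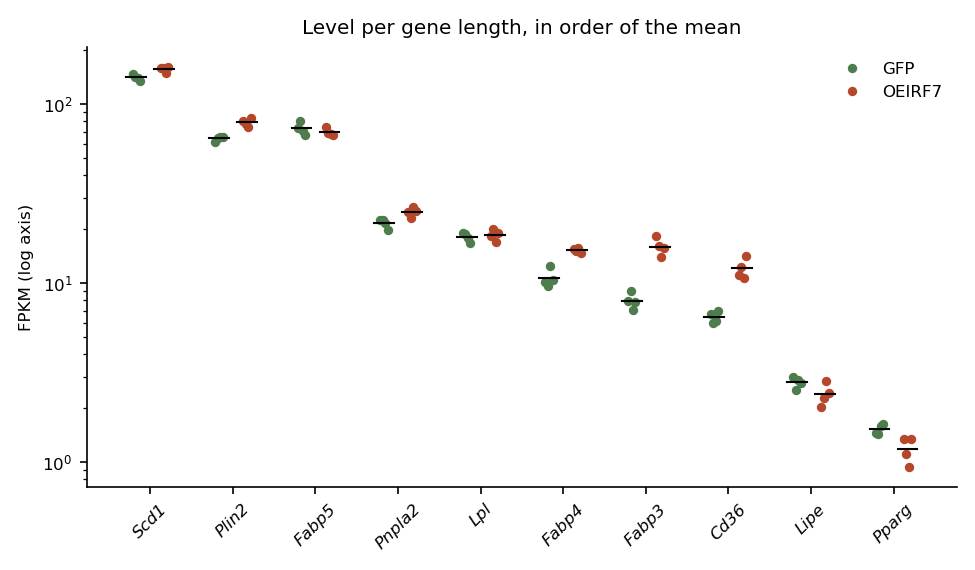
FPKM of each gene on a log axis, in order of the mean over both groups, with 1 point per library and a bar at the group mean (n = 4 per group). Scd1 is highest in both groups, and Plin2 stands above Fabp5 in the libraries labelled OEIRF7 but below it in the GFP libraries.

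The rest of the pathway was read from a list of 85 genes in 8 roles, of which 65 passed the filter on low counts. By the same test, 21 had a higher level under the label OEIRF7 and 18 a lower one, or 32.3% and 27.7% of those tested. Both shares are near those of all tested genes (29.0% and 29.9%), and the median log2 fold change was 0.03. Most roles held genes of both directions.

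Among 14 regulators, 4 were higher and 4 lower. Cebpb, an early transcription factor of fat cell formation, rose by 1.17 on the log2 scale (edgeR adjusted p = 8.5e-10), from 10.9 ± 0.692 to 24.7 ± 0.389 CPM (SD, n = 4 each). Its paralog Cebpd fell by 0.42 (edgeR adjusted p = 0.0034), and Cebpa had a log2 fold change of 0.01 (edgeR adjusted p = 0.93). Of 11 tested genes of fatty acid uptake and activation, 2 were higher and 3 lower. Slc27a3, an acyl-CoA synthetase of the fatty acid transport protein family, fell by 1.14 (edgeR adjusted p = 7.5e-07), from 10.03 ± 1.499 to 4.55 ± 0.293 CPM (SD, n = 4 per group).

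Of 14 tested genes of triglyceride synthesis, 4 were higher and 3 lower. Dgat2, one of the enzymes of the last step, rose by 0.44 on the log2 scale (edgeR adjusted p = 0.0097), from 3.47 ± 0.544 to 4.71 ± 0.260 CPM (SD, n = 4 each). Dgat1, the other, had a log2 fold change of 0.11 (95% interval from -0.05 to 0.27, edgeR adjusted p = 0.23). Of 5 tested lipid droplet proteins 3 were higher and 1 lower, of 5 lipolysis genes 2 were higher and 2 lower, and of 9 genes of synthesis and desaturation 2 were higher and 4 lower. Past a log2 fold change of 1 there were 5 higher genes, Angptl4, Fabp7, Cebpb and, with a mean under 1 CPM, Ppargc1a and Pnpla3, and 2 lower genes, G0s2 and Slc27a3. These were 5 and 2 of the 65 tested, where 4.66% and 3.89% of all tested genes were higher and lower by this rule.

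**Figure D5:**
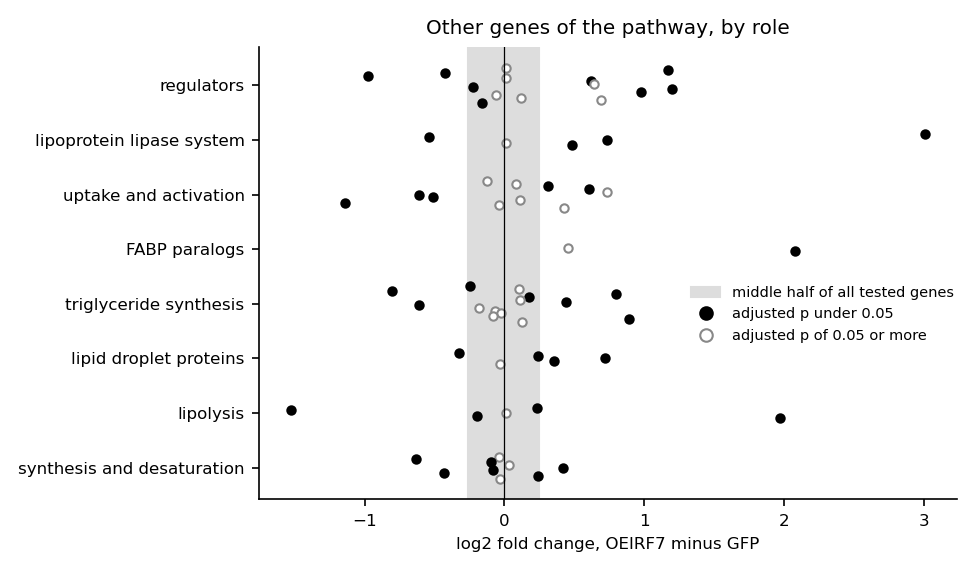
Log2 fold change, libraries labelled OEIRF7 minus GFP, of the 65 tested pathway genes by role, with filled points where edgeR's adjusted p was under 0.05 and a grey band for the interquartile range of all tested genes. Filled points lie on both sides of 0 in 7 of the roles, with Angptl4 farthest to the right at 3.01 and G0s2 farthest to the left at -1.53.

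The table assigns the PPAR signaling pathway of KEGG to 8 of the 10 members, all but Pnpla2 and Lipe. Of the 84 other genes with that pathway 54 were tested. Of the 54, 10 were higher and 18 lower, where 29% of all tested genes were higher and 29.9% lower. The median log2 fold change of the 54 was 0.01 (edgeR). This list of pathway genes was read after the members' values were seen.

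Cd36 and Fabp4 are also expressed by endothelial cells and macrophages, and Lpl by macrophages. Both cell types left markers in these cultures. The summed level of 8 macrophage markers was 279 to 334 CPM in the GFP libraries and 339 to 382 CPM in those labelled OEIRF7, where 4 of the 8 were higher and 0 lower (edgeR). Most of the sum was Lyz2, with a mean of 202 CPM in the GFP libraries and 235 CPM in those labelled OEIRF7. Among the 8 markers, Mrc1 rose by 1.05 on the log2 scale, while Ptprc, which all leukocytes carry, had a log2 fold change of -0.08 (edgeR adjusted p = 0.64). Csf1r, C1qa and C1qb did not pass either, at 0.06, 0.14 and -0.32. The summed level of 8 endothelial markers was 217 to 231 CPM and 221 to 250 CPM, with 3 of the 7 tested higher and 1 lower. Beside both lists, 29.0% of all tested genes were higher and 29.9% lower. The part of these cells in the rise of Cd36 and Fabp4 was not tested. For Fabp3, the form of heart muscle, the summed level of 9 cardiomyocyte markers was 9.95 to 13.6 CPM in the GFP libraries and 7.73 to 9.89 CPM in the others, most of it Tnnt2, which was lower. The other 8 had at most 13 counts in a library and were not tested. Of these, Myh6 had 1 count in all libraries together, and Ryr2 had 1 to 4 counts in the GFP libraries and 5 to 13 in those labelled OEIRF7. Adipocyte markers summed to at most 0.112 CPM in any library.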

How the data were processed

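RNA-seq was performed on 8 libraries of primary murine cardiac fibroblasts, made with a stranded mRNA kit. Reads were trimmed with Trimmomatic and mapped to GRCm38 with HISAT2. The authors deposited unnormalized counts, obtained with HTSeq-count, and FPKM from Cufflinks, which divide by gene length and depth. Tool versions are not given in the sources used here. Deposited log2 ratios, mean FPKM, p-values and FDR of the authors' own comparison were not used.

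For the counts edgeR 4.0.16 was used under R 4.3.3. Its filterByExpr left 13533 of 22274 genes. After TMM scaling the groups were the only term of the quasi-likelihood fit (glmQLFit, glmQLFTest), and p-values were adjusted by Benjamini-Hochberg over all tested genes. Standard errors were taken from the fold change and its F statistic. Exact two-sided permutation tests used log2 CPM with a prior count of 2. On simulated data 96% of 200 genes changed by 2-fold were recovered among 13456. The simulation used a set spread and changes larger than that of any member. It thus checks the fit and does not give its power for the members. Symbols and coordinates came from GENCODE M21, which held 22219 of the identifiers. In the table nc had been replaced by GFP, and 121 symbols were restored by identifier.

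The members and gene lists were chosen with earlier results of these data known. Pathway genes named by rule are the paralogs and partners of members and those past a log2 fold change of 1 with a mean over 1 CPM. Cebpa and Cebpd are given beside Cebpb, outside this rule. Alternatives were DESeq2 1.42.0, library size alone, upper-quartile scaling, minimums of 1 count in total and 10 in every library, a block for the replicate number, fits that each left out 1 library, and limma 3.58.1 on log2 FPKM, with 1 or 0.1 added and a mean over 0.1 FPKM required, or with 1 added and no filter. No replicates agreed within sampling noise (chi-square over degrees of freedom at least 2.91 in each pair).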

Additional observations from a re-analysis of the deposited data

Results flagged for a closer look

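In 52 groups of 4 libraries, a library far from the other 3 was looked for with Dixon's ratio of its gap to the range. These were the groups of the members and of the tested pathway genes named by the rule above. The ratio passed the 95% critical value in 4 groups, where chance flags about 1 in 20, and in no member. Scd2 had 2192 CPM in GFP replicate 2 and 2305 to 2322 CPM in the other GFP libraries (ratio 0.874). Dgat1 had 15.4 CPM in OEIRF7 replicate 4 and 13.4 to 13.7 CPM in the others of its group (ratio 0.835). Cebpb had 25.3 CPM in OEIRF7 replicate 3 and 24.5 CPM in the others of its group (ratio 0.901). Fabp7 had 3.48 CPM in GFP replicate 3 and 2.58 to 2.64 CPM in the other GFP libraries (ratio 0.913), and all 4 libraries labelled OEIRF7 were above it.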

How the results depend on the processing

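The number of higher members was 6 under all 17 alternatives, and Cd36, Fabp3, Fabp4, Plin2, Pnpla2 and Scd1 each passed in every one, with log2 fold changes of 0.75 to 0.89, 0.91 to 1.04, 0.45 to 0.57, 0.26 to 0.31, 0.18 to 0.25 and 0.12 to 0.16. The number of lower members was 1, and it was 0 with DESeq2, 0 with library size alone and 0 in limma on log2(FPKM + 1) without a filter, where the adjusted p of Pparg was 0.053, 0.053 and 0.062. Pparg kept its direction in all 17 and its call in 8. Without 1 library at a time, the lower members numbered 0 to 1. This count hides a change of gene, since Fabp5 took the place of Pparg without GFP replicate 4, as did Lipe without OEIRF7 replicate 3. Past a log2 fold change of 1 there was 1 higher member with library size alone, Fabp3 at 1.002, and 0 to 1 without 1 library at a time. The lower members past it numbered 0 in each of these fits. Lpl, which passed in none, changed sign to 0.0031 with library size alone, 0.012 without GFP replicate 2 (range -0.054 to 0.012 without 1 library at a time), 0.029 and 0.030 in limma on log2(FPKM + 1) and log2(FPKM + 0.1), and 0.029 without a filter. Without 1 library at a time, the pathway list held 19 to 22 higher and 16 to 18 lower genes. With the replicate number as a block it held 21 and 18, and the members 6 higher and 1 lower, with an adjusted p of 0.045 for Pparg (edgeR). Same-numbered libraries correlated in their deviations from the group means by 0.079, 0.095, 0.14 and 0.10, each above its correlation with any other number, at most 0.048. As they were not over 0.1 in every pair, the numbers were not taken as pairs in the main fit. The cut of 0.1 does not exclude a batch shared by number, and the labels do not name one. The causes of these changes were not tested. Pparg, with 46 to 83 counts per library, is the member whose precision depth limits most.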
